A study of Mus musculus with 9 samples.

Results

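The Arp2/3 complex binds the side of an actin filament and starts a new filament there as a branch, and branched actin of this kind drives the leading edges of growth cones and migrating neurons. The complex is inactive until an activator such as WAVE, N-WASP or WASH engages it. Cyfip2 belongs to the WAVE regulatory complex, in which WAVE is held silent until the GTPase Rac1 binds. Mammals carry paralogs for several positions of the complex, so that Arpc1a or Arpc1b, Arpc5 or Arpc5l, and Actr3 or Actr3b can fill the same place.

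The 10 genes described here encode the Arp2/3 subunits in mouse: Actr2, Actr3, Actr3b, Arpc1a, Arpc1b, Arpc2, Arpc3, Arpc4, Arpc5 and Arpc5l. They were taken by symbol from a table of 18820 genes, all 10 were present, and all 10 passed the filter on low values that left 15069 genes for testing. RNA was measured in cortex of C57BL/6J embryos at embryonic day 18.5, in 3 Cyfip2 knockout (KO) libraries, 3 Cyfip2 heterozygous (Het) libraries and 3 wild-type (WT) libraries. The labels do not describe the mutant allele. Whether each library stands for its own embryo is not given in them either, so the p-values measure only the spread between these libraries. Part of that spread may be technical, although Y-linked RNA shows that libraries of both sexes stand within KO and within Het. Values are normalized counts, that is, gene counts that the authors divided by a size factor per library.

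Approximate depth, estimated from the spacing of low values, ran from 29.5 to 54.4 M reads counted to genes per library. Counting errors given below rest on the same estimate. All 8 cortical neuron markers were detected, with summed levels between 72464 and 103836 normalized counts. Cdhr1, which marks mitral cells of the olfactory bulb, lay between 2138 and 3436 normalized counts in 4 libraries (KO replicates 1 and 2, Het replicate 1, WT replicate 3) and between 21.8 and 53.1 in the other 5. Of the other 4 olfactory bulb markers on the list, Tbx21 followed this split, at 48.5 to 84.2 in the same 4 libraries and 2.38 to 10.01 in the rest, while Eomes, Lhx5 and Doc2g did not. The Y-linked gene Ddx3y was at 0 in KO replicates 1 and 2 and Het replicate 1, and between 1394 and 1674 in the others. Het replicate 3 was low in meningeal genes. Cyfip2 itself was at 7900, 7522 and 8255 normalized counts in KO, at 8969, 9779 and 9882 in Het, and at 10169, 10345 and 11174 in WT, so the 3 genotypes did not overlap. In whole tissue, fewer cells of a type and less RNA per cell cannot be told apart.

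Coordinates are those of GENCODE on GRCm38. Actin-like subunits are encoded by Actr2 (ENSMUSG00000020152) at chr11:20062304-20112913 on the minus strand, Actr3 (ENSMUSG00000026341) at chr1:125392905-125435727 on the minus strand and Actr3b (ENSMUSG00000056367) at chr5:25759997-25850688 on the plus strand. The core and bridging subunits are encoded by Arpc2 (ENSMUSG00000006304) at chr1:74236084-74268209 on the plus strand, Arpc4 (ENSMUSG00000079426) at chr6:113378115-113390448 on the plus strand and Arpc3 (ENSMUSG00000029465) at chr5:122391878-122414184 on the plus strand. The Arpc5 paralogs are Arpc5 (ENSMUSG00000008475) at chr1:152766542-152775597 on the plus strand and Arpc5l (ENSMUSG00000026755) at chr2:39005348-39015877 on the plus strand.

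The coding sequences of the paralogs differ enough to be counted apart. Arpc1b and Arpc1a were identical at 72.0% of aligned coding bases, Actr3b and Actr3 at 76.3%, and Arpc5l and Arpc5 at 69.5%, and no stretch of 31 bases was shared within any of these pairs. Actr3 and Actr2, the actin-like subunits that form the base of the new branch, were identical at 52.5%. Actr3 shared 63.6% of its 31-base stretches with other genes, mostly a processed pseudogene, Gm8822, which was itself at 2.27 to 10.7 normalized counts. Arpc1b shared 22.5% with genes outside the table, mostly the processed pseudogene Gm5637. Arpc4 shared 11.3% with Ttll3, which overlaps it on the same strand and was at 128 to 225 normalized counts. Values of these 3 subunits are uncertain to the extent that the authors' counting split such reads. Arpc5l overlaps Wdr38 on the same strand, at 15.5 to 26.7 normalized counts. On the opposite strand, which the stranded kit can separate, Arpc5l overlaps Rpl35, at 5590.5 to 7149 normalized counts, and Arpc1b overlaps Pdap1, at 5223 to 6410.5. Whether the counting used strand is not stated in the labels.

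Arpc1a and Arpc1b are neighbours on the plus strand of chromosome 5 (GRCm38). Arpc1a (ENSMUSG00000029621) spans chr5:145083830-145108761 and Arpc1b (ENSMUSG00000029622) spans chr5:145114215-145130705, with 5453 bases and no annotated gene between them. Their RNA behaved differently across the libraries. The 250 bases before each RefSeq start (GRCm38.p6) are shown in full, and whether these bases bear on that difference was not tested. Capitals mark GC boxes (GGGCGG on either strand) in Arpc1b and an ETS site (CCGGAAGT on either strand) in Arpc1a.
Arpc1b, chr5:145114006-145114255, plus strand: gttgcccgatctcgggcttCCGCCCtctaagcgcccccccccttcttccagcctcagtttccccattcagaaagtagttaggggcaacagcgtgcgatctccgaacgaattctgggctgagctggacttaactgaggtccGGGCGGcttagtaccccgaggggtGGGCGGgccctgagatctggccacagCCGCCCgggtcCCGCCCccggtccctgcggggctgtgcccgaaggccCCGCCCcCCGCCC
Arpc1a, chr5:145083619-145083868, plus strand: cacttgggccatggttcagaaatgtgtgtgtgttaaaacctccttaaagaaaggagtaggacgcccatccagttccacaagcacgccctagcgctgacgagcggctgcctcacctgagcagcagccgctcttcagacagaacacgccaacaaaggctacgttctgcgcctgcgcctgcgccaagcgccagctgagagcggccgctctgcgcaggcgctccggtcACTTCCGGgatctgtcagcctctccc

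The Arpc1b window held 7 GC boxes and no ETS site, and the Arpc1a window held 1 ETS site and no GC box. RefSeq promoters were matched for 8 of the 10 subunit genes (not Actr3b and Arpc5l). The Arpc1a and Arpc1b windows end inside the GENCODE genes, and the Arpc2 window lies wholly inside its GENCODE gene. The ETS letters occurred in 4 of these 8 windows (50%), against 2.88% of all 32851 promoters of the same length. In all 4 they lay in the last 40 bases before the RefSeq start, where 1.12% of all promoters have them. In Arpc1a this site lies inside the GENCODE gene. The 40-base windows of the other 3 are shown because the letters sit at nearly the same distance from the start, 8 bases before it in Actr3, 11 in Arpc3 and 12 in Arpc4.
Actr3, chr1:125435728-125435767, minus strand: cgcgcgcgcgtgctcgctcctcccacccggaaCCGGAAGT
Arpc3, chr5:122391838-122391877, plus strand: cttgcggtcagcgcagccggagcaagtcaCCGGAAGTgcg
Arpc4, chr6:113378073-113378112, plus strand: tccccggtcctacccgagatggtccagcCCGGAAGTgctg

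GC boxes were present in 5 of the 8 windows, against 32.7% of all promoters. CCAAT was present in 2 of 8, against 33.8%, and TATAAA in 0 of 8, against 12.4%. A CArG box, the site of serum response factor, which controls many actin genes, was matched in 1 of 8 (Arpc4), against 1.47%. The windows had 51.2% to 74.4% G and C, against a median of 52.4% over all promoters, and 14 to 37 CpG, against a median of 6. These are letter matches only.

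Levels of different subunits were compared per kilobase of the principal GENCODE transcript. In WT the order was Arpc3 at 5439 ± 62.1 normalized counts per kilobase (SD, n = 3), then Arpc2 at 4615 ± 350.2, Actr3 at 3655 ± 125, Arpc5 at 3522 ± 52.0, Arpc1a at 3436 ± 94.1, Actr2 at 2482 ± 43.5, Arpc5l at 1429.6 ± 26.5, Actr3b at 601 ± 20.9, Arpc4 at 596 ± 47.8 and Arpc1b at 232 ± 83.0. The WT ranges of neighbours overlapped for Actr3 and Arpc5, for Arpc5 and Arpc1a, and for Actr3b and Arpc4, and not for the other neighbours. Within the paralog pairs, Arpc1a was higher than Arpc1b, Actr3 than Actr3b, and Arpc5 than Arpc5l. The transcript chosen matters most for Arpc4, whose WT level would be 1945 per kilobase on its shortest complete coding transcript, and for Arpc1b, which would be at 516.

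**Figure D1:**
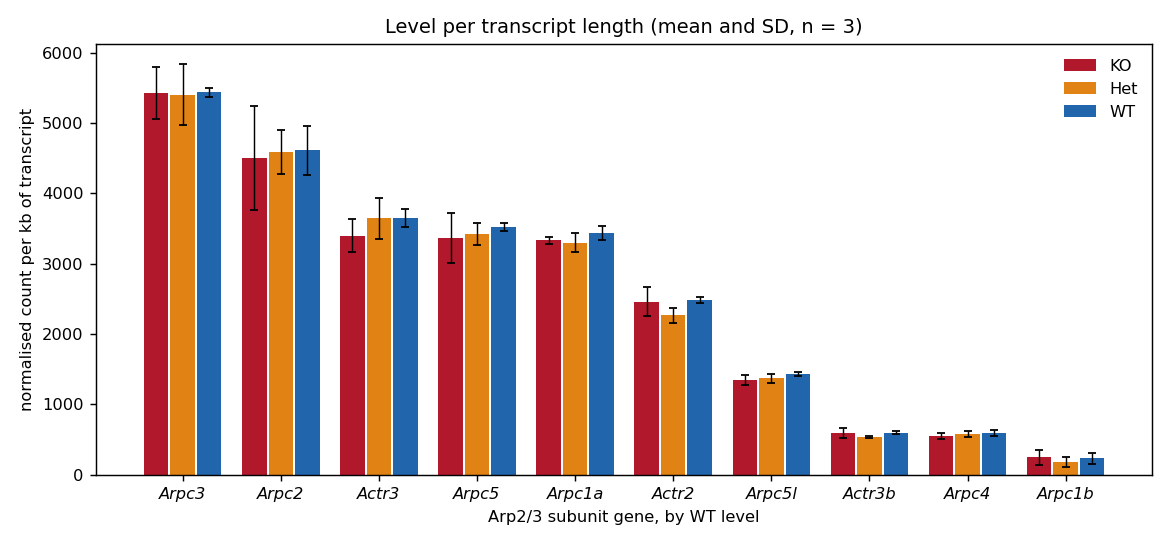
Normalized counts per kilobase of principal transcript for the 10 Arp2/3 subunit genes, ordered by their WT level, as bars for the KO, Het and WT means with error lines for the SD (n = 3). In WT, Arpc3 was the highest at 5439 and Arpc1b the lowest at 232, and the order is alike in KO and Het apart from Actr3b and Arpc4, which change places in Het.

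Actr2 encodes Arp2, which with Arp3 mimics an actin dimer as the seed of the branch. It was at 8527, 8472 and 9795 normalized counts in KO, at 8011, 8007 and 8667 in Het, and at 8961, 8887 and 9189.7 in WT. KO spanned the WT values, while all 3 Het libraries lay below all 3 WT libraries. Actr3, which encodes Arp3, was at 8096, 8752 and 9309 in KO, at 8649, 9286 and 10122 in Het, and at 9653, 9025 and 9445 in WT. The 3 genotypes overlapped. Actr3b, an Arp3 paralog with prominent expression in brain, was at 1075, 1112 and 874 in KO, at 922, 900.1 and 937 in Het, and at 1023, 996 and 1067 in WT. Here too each Het library lay below each WT library, and KO replicates 1 and 2 were the highest of all 9 while KO replicate 3 was the lowest.

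Arpc2 and Arpc4 form the core that clamps the mother filament. Arpc2 was at 5836, 5911 and 7713 normalized counts in KO, at 6206, 6526 and 7097 in Het, and at 6219, 6504 and 7199 in WT. KO replicate 3 was the highest library and KO replicates 1 and 2 the lowest, so that the KO libraries enclosed the others. Arpc4 was at 1311, 1145 and 1301 in KO, at 1211, 1338 and 1397 in Het, and at 1429, 1399 and 1228 in WT. The genotypes overlapped. Arpc3, which contacts Arp3, was at 4925, 4522 and 5184 in KO, at 4767, 4528 and 5282 in Het, and at 4825, 4914 and 4928 in WT. The WT libraries lay close together, inside the range of the KO and of the Het libraries.

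Arpc5 ties Arp2 to the rest of the complex. It was at 6245, 5889 and 7211 normalized counts in KO, at 6356, 6389 and 6906 in Het, and at 6731, 6846 and 6648 in WT. Its paralog Arpc5l was at 1808, 1708 and 1897 in KO, at 1769, 1817 and 1933 in Het, and at 1951, 1880.2 and 1912 in WT. For both genes KO replicate 2 was the lowest of the 9 libraries, and the genotypes overlapped.

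Arpc1a and Arpc1b are beta-propeller subunits that contact the activator. Arpc1a was at 5384, 5517 and 5408 normalized counts in KO, at 5261, 5251 and 5647 in Het, and at 5779, 5561 and 5482 in WT. This was the steadiest subunit, with a highest library 1.10 times the lowest. Arpc1b, which is enriched in blood and immune cells and whose loss in humans causes an immune deficiency with platelet defects, was at 1132, 622 and 552 in KO, at 773, 604 and 342 in Het, and at 570.3, 571 and 1017 in WT. It ranged 3.31-fold over the 9 libraries, from Het replicate 3 to KO replicate 1, and also spread widely within each genotype, with coefficients of variation of 41.2% in KO, 37.9% in Het and 35.8% in WT.

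**Figure D2:**
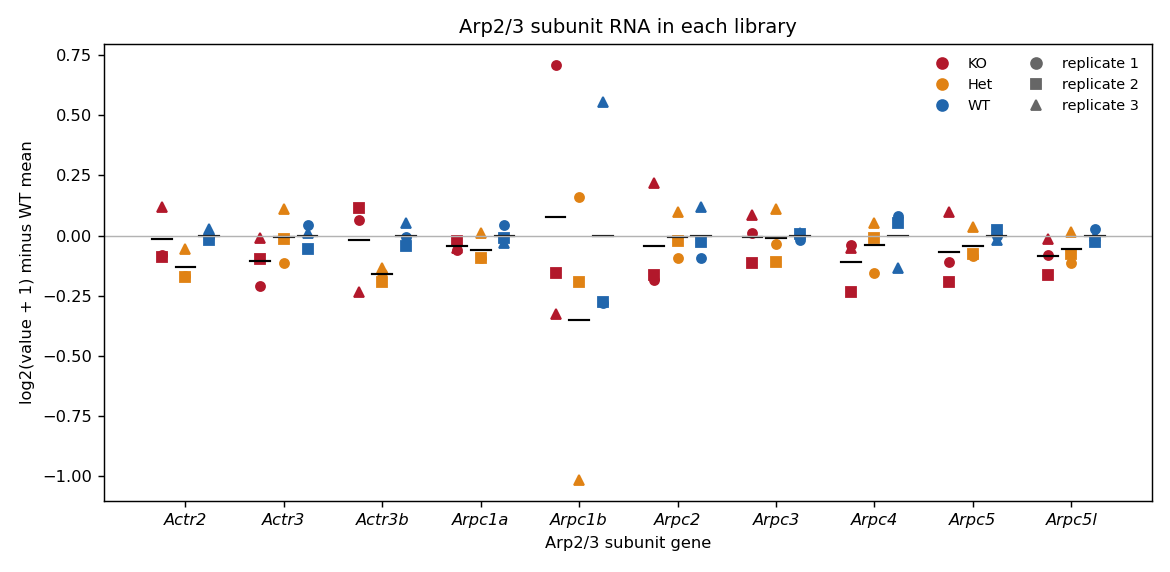
log2(value + 1) of each subunit gene minus its WT mean, in KO, Het and WT, with 1 point per library, its shape giving the replicate and a short line the genotype mean. Arpc1b spreads from 342 to 1132 normalized counts, while the highest library of each of the other 9 genes is 1.10 to 1.32 times its lowest.

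The comparison of KO with WT asked whether the RNA of the complex differs when Cyfip2 is mutated. No subunit passed the test. Subunit means in KO were between 92.6% and 99.7% of WT for the other 9 genes, and Arpc1b was at 107%. limma with Benjamini-Hochberg adjustment over all genes called 0 of 10 subunits, and the background was 0% of the 15069 genes tested. At an unadjusted p under 0.05 the count was also 0 of 10, with a background of 1.18%. The KO and WT libraries overlapped for all 10 subunits, and they did not overlap for 6.46% of all genes.

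Actr3 was at 8719 ± 607 normalized counts in KO and 9374.0 ± 320 in WT (SD, n = 3 each), with a log2 fold change of -0.11 ± 0.07 (SE). Fold changes are on the log2(value + 1) scale. Arpc4 was at 1253 ± 93.0 in KO and 1352 ± 108 in WT, a log2 fold change of -0.11 ± 0.09. Arpc5l was at 1804 ± 94.2 in KO and 1914 ± 35.4 in WT, a log2 fold change of -0.09 ± 0.06. These were the subunits farthest below WT, and none passed.

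The remaining log2 fold changes of KO against WT were -0.07 ± 0.07 for Arpc5, -0.04 ± 0.05 for Arpc1a, -0.04 ± 0.11 for Arpc2, -0.02 ± 0.07 for Actr2, -0.02 ± 0.09 for Actr3b and -0.01 ± 0.07 for Arpc3. The smallest unadjusted p among the 10 was 0.179 and every adjusted p was 1.00. For these 9 genes other than Arpc1b, the 95% intervals ran from 80.4% to 116% of WT at their widest. For Arpc1b the log2 fold change was 0.08 ± 0.38, with an interval from 58.2% to 191% of WT. At this spread neither the direction nor the size of a difference was resolved. The log2 fold change was -0.24 without KO replicate 1 and 0.35 without WT replicate 3.

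In direction, 9 of 10 subunits were below WT in KO, where 51.6% of all genes were, and the median over the subunits was -0.04 on the log2 scale against 0.00 (-0.00415) over all genes. The median size of the difference, without sign, was 0.06 for the subunits and 0.07 for all genes. The count moved with the libraries used. It was 6 of 10 without KO replicate 2, with sex as a covariate, and without the 4 libraries with high Cdhr1, and 10 of 10 without WT replicate 1 and without WT replicate 2. It was 8 of 10 with upper-quartile rescaling. Without the 4 libraries with high Cdhr1, Arpc2 was at a log2 difference of 0.28 and Actr2 at 0.13, both above WT, from a single KO library.

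**Figure D3:**
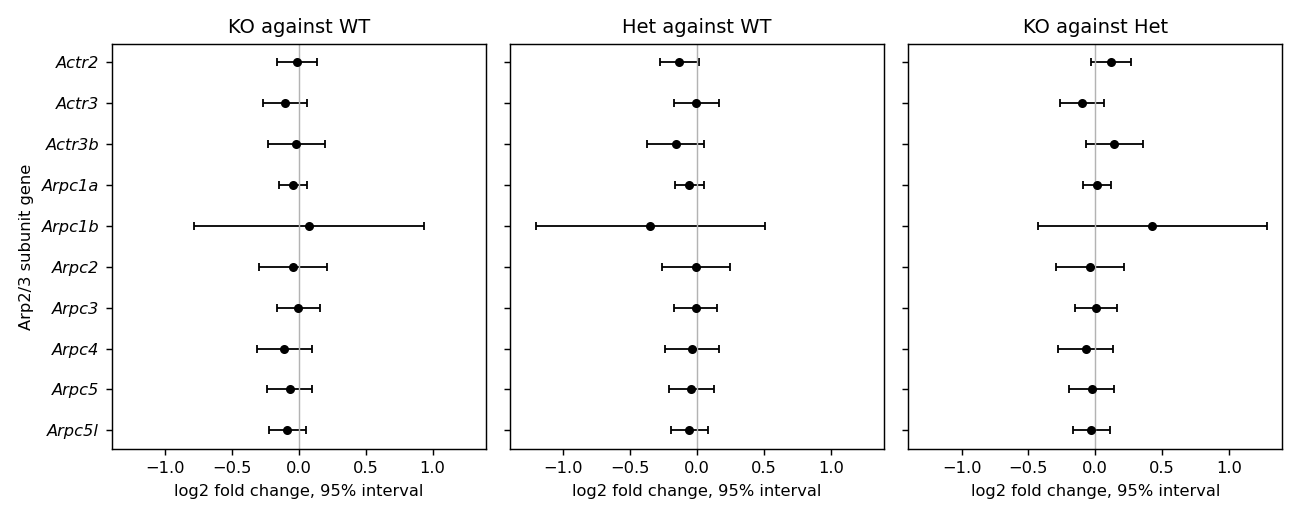
log2 fold change with its 95% interval (limma) of each subunit in KO against WT, Het against WT and KO against Het, with a line at 0. Every interval includes 0, and those of Arpc1b are the widest.

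The comparison of Het with WT asked the same of the heterozygous genotype. Again no subunit passed, 0 of 10 at an adjusted p under 0.05 with a background of 0%, and 0 of 10 at an unadjusted p under 0.05 with a background of 1.61%. Under 7 of 19 alternatives 1 or 2 subunits, Actr2 or Actr3b or both, had such an unadjusted p. Under these 7 the background ran from 240 of 15069 genes (quantile normalization) to 777 (sex as a covariate). The Het libraries lay below the WT libraries without overlap for 2 of 10 subunits, Actr2 and Actr3b, and for 3.31% of all genes. Actr2 was at 8228 ± 380.3 normalized counts in Het and 9013 ± 158 in WT (SD, n = 3 each), a log2 fold change of -0.13 ± 0.07. Actr3b was at 919.7 ± 18.6 in Het and 1029 ± 35.8 in WT, a log2 fold change of -0.16 ± 0.09. Their adjusted p in limma was 1.00.

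Neither gene showed an order by Cyfip2 copies, since the KO mean of Actr2 was 99.1% of WT and that of Actr3b 99.2%. All 10 subunits were below WT in Het, where 53.8% of all genes were, with a median log2 fold change of -0.05 against -0.01 over all genes. That count was 5 of 10 with sex as a covariate, 7 of 10 without the libraries with high Cdhr1, and 6 of 10 without Het replicate 1. Het means were between 89.4% and 99.8% of WT for the other 9 genes, with 95% intervals from 77.1% to 119%. Arpc1b was at 79.7% of WT, a log2 fold change of -0.35 ± 0.38, which was -0.02 without Het replicate 3, -0.07 without WT replicate 3 and -0.60 without Het replicate 1.

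The comparison of KO with Het gave 0 of 10 subunits called, with a background of 0%. The unadjusted count was 0 of 10 too, with a background of 3.59%, and the libraries overlapped for all 10, where 7.82% of all genes did not overlap. Deviations of same-numbered KO and Het libraries correlated at 0.45, 0.10 and 0.47. The value of 0.10, for replicates 2, was below that of KO replicate 1 with Het replicate 2 (0.15). With the replicate number as a block 1 of 10 subunits, Actr2, had an unadjusted p under 0.05, with a background of 6.53%, and 0 were called. Here 5 subunits were above Het and 5 below, where 49.6% of all genes were below, with a median of -0.01 against 0.00 (0.00157) over all genes. Actr3b was at 1020.2 ± 128 in KO and 919.7 ± 18.6 in Het (SD, n = 3 each), a log2 difference of 0.14 ± 0.09, and Actr2 was at 0.12 ± 0.07. Without the 4 libraries with high Cdhr1 the value of Actr3b was -0.07. Arpc1b had a log2 fold change of 0.43 ± 0.38, which was 0.09 without Het replicate 3, 0.11 without KO replicate 1 and 0.68 without Het replicate 1. The 3 comparisons share libraries and are not independent of each other.

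Across single libraries the subunits other than Arpc1b kept within a narrow band. The SD of log2 values over the 9 libraries was between 0.05 and 0.14 for these 9 genes, at percentiles 1.63 to 47.4 of all tested genes, and counting error at their lowest values was at most 3.43%. The median subunit, relative to the WT mean, stood at -0.07, -0.13 and -0.01 in KO replicates 1 to 3, at -0.10, -0.09 and 0.02 in Het replicates 1 to 3, and at -0.01, -0.02 and 0.01 in WT replicates 1 to 3, on the log2 scale. The lowest of these 9 values was that of KO replicate 2. The 10 genes together took between 0.120% and 0.131% of each library's normalized counts. By root mean square difference of centred log2 values over the 9 libraries, the genes nearest to the mean profile of the 9 steady subunits were Ube2n (0.0112), Arf2 (0.0193), Srp54c (0.0210), Snapc1 (0.0220) and Arl1 (0.0224), where the profile itself had an SD of 0.0572. Srp54c has near-identical copies, so its value is uncertain.

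Arpc1b stood apart in spread, with an SD of 0.51 on the log2 scale, and 1660 of the 15069 tested genes had a larger one. Counting error at its lowest value was 5.59%, against a coefficient of variation of 36.0% over the libraries. The 4 libraries with high Cdhr1 were the 4 highest for Arpc1b, at 1132, 622, 773 and 1017 normalized counts, and the other 5 lay between 342 and 604. Among those 5 the values were 552 in KO, 604 and 342 in Het, and 570.3 and 571 in WT. The part in this spread of whatever tissue carried Cdhr1 was not tested.

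Since Arpc1b is abundant in microglia and macrophages, their markers were set beside it. The summed level of 14 microglia and macrophage markers was 5575, 4074 and 3346 normalized counts in KO, 5093, 3319 and 1596 in Het, and 3679, 4010.0 and 3460.1 in WT. Both this sum and Arpc1b were highest in KO replicate 1 and lowest in Het replicate 3, but WT replicate 3, second for Arpc1b, was not high in these markers. The 10 meningeal fibroblast markers summed to 21899, 15321 and 10837 in KO, to 18112, 11987 and 986 in Het, and to 10239, 10365 and 12502 in WT. Here too KO replicate 1 was the highest and Het replicate 3 the lowest, and the 4 highest sums belonged to the 4 libraries highest for Arpc1b, WT replicate 3 among them. The 12 vascular markers too summed highest in KO replicate 1 (24147.6) and lowest in Het replicate 3 (10032.5). For them WT replicate 3 (17027.3) lay below KO replicate 3 (17768). The 7 erythroid markers summed highest in KO replicate 1 (98774.5) but lowest in KO replicate 2 (27035.5). No microglia, macrophage or meningeal marker was at 0 in any library, and the part of these lists in the Arpc1b values was not tested.

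Of the microglia and macrophage markers, 11 of 14 were above WT in KO, 0 of 14 were above WT in Het and 14 of 14 were above Het in KO, none of them passing. The same counts were 9, 0 and 9 of 10 for the meningeal markers, again with none passing. They were 12, 2 and 12 of 12 for the vascular markers and 3, 7 and 2 of 7 for the erythroid markers, none passing. Over all genes, 51.6% were below WT in KO, 53.8% below WT in Het and 49.6% below Het in KO. Het replicate 3 lay far below the other Het libraries. The meningeal medians of centred log2 values were 0.90, 0.23 and -4.53 in Het replicates 1 to 3, against 0.10 to 0.57 in WT. The microglia medians were 0.40, -0.13 and -0.89, against 0.03 to 0.17 in WT. The genes nearest to Arpc1b across the 9 libraries were Zic4 (root mean square difference 0.14), Irf5 (0.14), Adamts16 (0.17), Crybg3 (0.17) and C1qtnf2 (0.18). Zic4, a zinc finger transcription factor, was at 760.0, 414 and 291 normalized counts in KO, at 514, 425 and 182 in Het, and at 362, 379 and 624 in WT. Irf5, an interferon regulatory factor of myeloid cells, was at 61.8, 39.4 and 23.8 in KO, at 39.3, 29.8 and 17.5 in Het, and at 27.2, 31.8 and 55.2 in WT. Both were high in KO replicate 1 and WT replicate 3 and lowest in Het replicate 3, as Arpc1b was. They were chosen for that likeness, so the shared pattern is not a separate result.

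**Figure D4:**
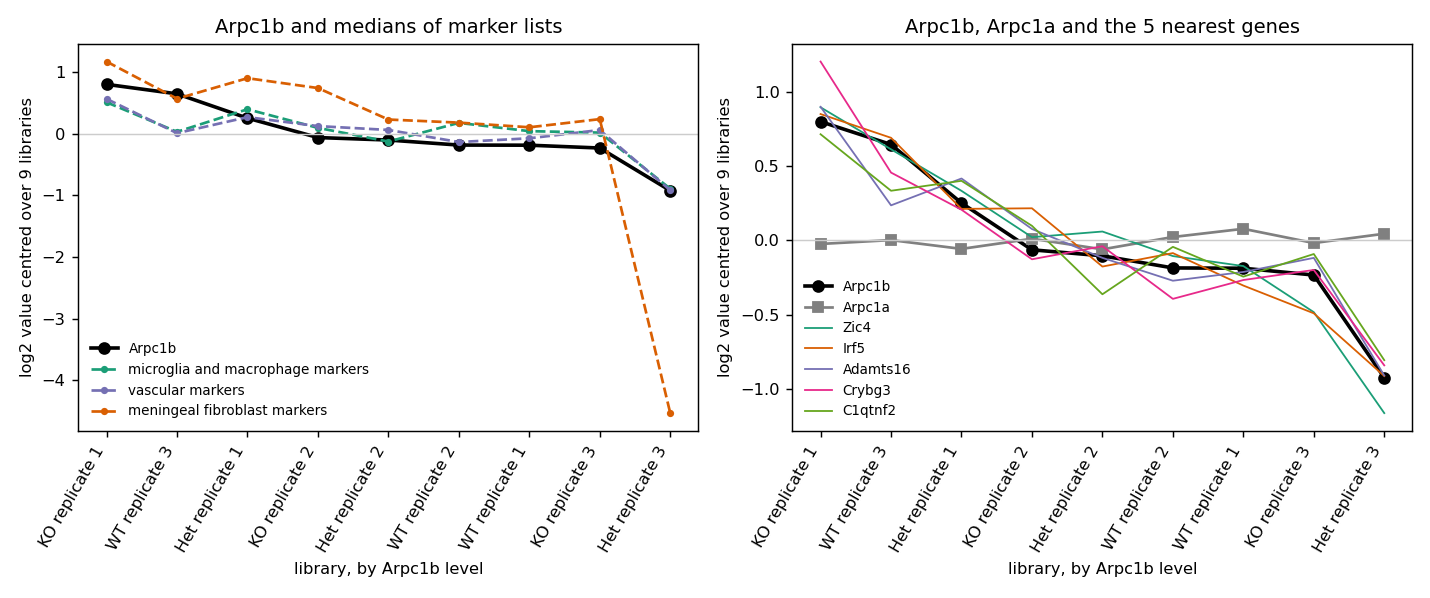
log2 values centred over the 9 libraries, which are ordered by their Arpc1b level, for Arpc1b with the medians of 3 marker lists (left) and for Arpc1b with Arpc1a and the 5 nearest genes (right). Arpc1b and Zic4, which was chosen as its nearest gene, are high in KO replicate 1 and WT replicate 3 and lowest in Het replicate 3. In WT replicate 3 the meningeal median is at 0.57 while the microglia and vascular medians are near 0. Arpc1a stays flat.

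A ratio within a library does not depend on a scaling factor for that library, so the paralogs were also compared as ratios, in 9 comparisons with exact two-sided permutation tests, for which 3 against 3 libraries can give no p below 0.10. None passed, and the adjusted p over the 9 comparisons was 0.9 or 1. The Arpc1b to Arpc1a ratio averaged -2.90 ± 0.56 in KO, -3.31 ± 0.66 in Het and -3.02 ± 0.51 in WT (log2, SD, n = 3 each), and its differences were 0.12, -0.29 and 0.41 for KO against WT, Het against WT and KO against Het, each with an exact p of 0.6. Per kilobase of transcript, Arpc1b made up 9.95%, 5.59% and 5.10% of the pair in KO, 7.17%, 5.70% and 3.08% in Het, and 4.93%, 5.12% and 8.88% in WT. On the shortest complete coding transcripts the range was 6.62% to 19.7%.

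The Actr3b to Actr3 ratio averaged -3.10 ± 0.27 in KO, -3.34 ± 0.10 in Het and -3.19 ± 0.05 in WT (log2, SD, n = 3 each). Its exact p was 0.7 for KO against WT (difference 0.09), 0.2 for Het against WT (-0.16) and 0.3 for KO against Het (0.24). Per kilobase, Actr3b was 16.6%, 16.0% and 12.3% of the pair in KO, 13.8%, 12.7% and 12.2% in Het, and 13.7%, 14.2% and 14.5% in WT. KO replicates 1 and 2, both with high Cdhr1 and without Ddx3y, lay above all other libraries. Het replicate 1, which shares both traits, lay below WT replicates 2 and 3, and KO replicate 3 lay near the Het libraries. Within each genotype the libraries with high Cdhr1 had the highest share, Het replicate 1 at 13.8% in Het and WT replicate 3 at 14.5% in WT. Without the libraries with high Cdhr1 the difference of KO against WT was -0.20. Actr3 shares sequence with its pseudogene, so this ratio is uncertain in level.

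The Arpc5l to Arpc5 ratio was the steadiest, at -1.83 ± 0.08 in KO, -1.83 ± 0.02 in Het and -1.82 ± 0.04 in WT (log2, SD, n = 3 each). Arpc5l made up between 27.3% and 29.3% of the pair per kilobase in all 9 libraries. The differences were -0.02, -0.02 and 0.00 (-0.00162) for KO against WT, Het against WT and KO against Het, with an exact p of 0.9, 0.7 and 1.

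**Figure D5:**
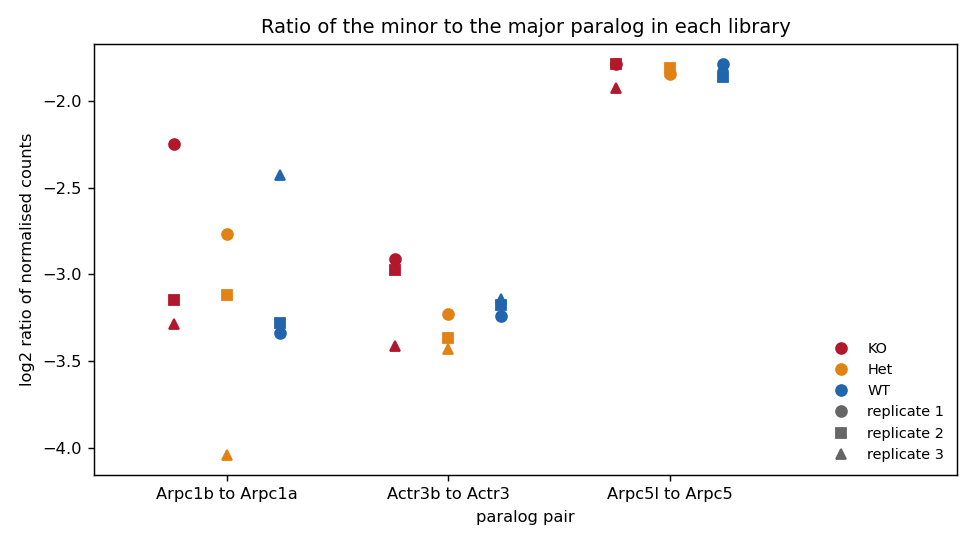
log2 ratio of Arpc1b to Arpc1a, Actr3b to Actr3 and Arpc5l to Arpc5 in each library of KO, Het and WT, with the point's shape giving the replicate. Arpc5l to Arpc5 stays near -1.83 in every genotype, while Arpc1b to Arpc1a spans from -4.04 in Het replicate 3 to -2.25 in KO replicate 1.

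The wider pathway was read from 5 lists, 4 of genes that act with or on the complex and 1 of actin-related proteins outside it. Of 11 Arp2/3 activators, 0 passed in KO against WT, with 4 above and 7 below and a median of -0.04. Nckipsd, which encodes an N-WASP and Arp2/3 binding protein, was at 1098 ± 164 in KO and 1217 ± 84.3 in WT (SD, n = 3 each), a log2 fold change of -0.16 ± 0.11. Washc1, the WASH activator on endosomes, was at -0.07 ± 0.07, and Wasl, which encodes N-WASP, at 0.05 ± 0.05. In Het against WT the activator with the smallest p was Wasf3, a WAVE protein, at -0.10 ± 0.09, and in KO against Het it was Nckipsd at -0.18 ± 0.11. None of these passed.

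Of 15 WAVE and WASH partners, 0 passed in KO against WT, with 11 above and 4 below and a median of 0.02. Cyfip2 was at 7893 ± 366 in KO and 10562 ± 537 in WT (SD, n = 3 each), a log2 fold change of -0.42 ± 0.06 with an adjusted p of 0.678 (limma), and it was the 1 gene of this list at an unadjusted p under 0.05. It was at -0.15 ± 0.06 in Het against WT and at -0.27 ± 0.06 in KO against Het. Abi1, a scaffold of the WAVE complex, was at 0.10 ± 0.05 in KO against WT, and Washc3, a subunit of the WASH complex, at 0.12 ± 0.11.

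Of 10 genes for inhibitors and branch disassembly, 0 passed, with 5 above and 5 below WT in KO and a median of 0.00 (0.00135). Gmfg, a debranching factor of blood cells, was at 48.5 ± 12.1 in KO and 31.8 ± 10.1 in WT (SD, n = 3 each), a log2 fold change of 0.62 ± 0.42. The coronins Coro7 and Coro1a were at 0.14 ± 0.10 and -0.13 ± 0.12. Gmfb, the brain form of the debranching factor, had the smallest p of this list in the other comparisons, at -0.08 ± 0.05 in Het against WT and 0.08 ± 0.05 in KO against Het.

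Of 8 upstream GTPases, 0 passed, with 3 above and 5 below WT in KO and a median of -0.02. Arf1 was at -0.06 ± 0.05, Rac2, the Rac of blood cells, at 0.38 ± 0.31, and Rhoj, a GTPase of endothelium, at 0.30 ± 0.36. Rac2 was at 69.4 ± 21.7 in KO and 51.8 ± 5.58 in WT (SD, n = 3 each), with its highest value, 93.0, in KO replicate 1. Cdc42 was at -0.06 ± 0.05 in Het against WT, and Rac2 at 0.45 ± 0.31 in KO against Het.

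Of 6 actin-related proteins outside the complex, 0 passed, with 1 above and 5 below WT in KO and a median of -0.08. Actr10, a dynactin subunit, was at 3327 ± 135 in KO and 3564 ± 37.6 in WT (SD, n = 3 each), a log2 fold change of -0.10 ± 0.05. The KO libraries, at 3311, 3202 and 3469, all lay below the WT libraries, at 3559, 3603 and 3528, as the KO libraries did without overlap in this direction for 3.3% of all genes. Actr8, a subunit of the INO80 chromatin remodeller, was at 1302, 1273 and 1334 in KO and at 1427, 1372 and 1400.1 in WT, again without overlap, so that 2 of the 6 genes separated. Its log2 fold change was -0.10 ± 0.05, and that of Actr1a, the filament subunit of dynactin, -0.06 ± 0.05. In Het against WT Actr10 was at -0.08 ± 0.05, and in KO against Het Actr8 was at -0.11 ± 0.05.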

How the data were processed

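Per the labels, polyadenylated RNA of 9 cortex libraries was made into stranded libraries (TruSeq Stranded mRNA). The deposited values are a signal, namely gene counts after division by a size factor for each library, as the file headers and the spacing of low values show. GRCm38 is the build, and DESeq2 1.19.11, Salmon 0.11.2 and R 3.6.0 are the tools, that the submitters' processing notes list without role or order. Of the values below 6, 61.0% to 78.6% lay within 0.1 of whole multiples of 1 read, so whole reads were not recovered and count tests were not used. Groups came from the labels. No column was left out.

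Values were taken as log2(value + 1) for the 15069 of 18820 genes with a mean of at least 10. limma 3.58.1 (R 4.3.3; lmFit, eBayes with a trend) fitted 1 mean per genotype over all 9 libraries, two-sided, with Benjamini-Hochberg adjustment over all genes and a threshold of 0.05. The step was tested on simulated data, with changes larger than those of any subunit and placed in genes of low spread. That test does not show whether differences as small as those of the subunits would be found. Symbols, coordinates and transcripts came from GENCODE (release M21, 18783 IDs matched), and promoters from RefSeq (GRCm38.p6). Alternatives were pseudocounts of 0.5 and 5, a replicate block, quantile and upper-quartile rescaling, filters of 50 and none, sex as a covariate, leaving out libraries, and the compared groups alone. Sex was read from Ddx3y. Deviations from the group means of same-numbered KO and Het libraries correlated at 0.45, 0.10 and 0.47. The replicate number was therefore tried as a block, as a hint from the data and not from the labels. Differently numbered KO and Het pairs passed 0.1, KO replicate 1 with Het replicate 2 (0.15) and KO replicate 2 with Het replicate 1 (0.12). Among differently numbered pairs with WT, Het replicate 1 with WT replicate 3 was at 0.17. KO and Het replicates 1 both had high Cdhr1 and no Ddx3y, and KO and Het replicates 3 both had low Cdhr1 and Ddx3y present.

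The members and lists were chosen with earlier results of these data known. The rule for named genes took all 10 subunits, Cyfip2, from each of the 5 other lists the 3 genes with the smallest p in KO against WT and the 1 in each other comparison, and the 5 genes nearest to Arpc1b, the subunit of largest SD, and to the mean of the other 9.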

Additional observations from a re-analysis of the deposited data

How the results depend on the processing

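No subunit passed under any of the alternatives tried, in any of the 3 comparisons. Among 570 recomputed fold changes of single subunits, 356 differed from the reported ones and the rest could not move or moved by under 1e-06; of the 356, 294 kept their sign and 62 reversed. For an unadjusted p under 0.05, fits that left 1 KO library are set aside. In KO against WT at most 1 subunit had such a p, without KO replicate 3, as did 805 of 15069 genes. In Het against WT at most 2 did (under 7 of 19 alternatives), as did 240 to 777 genes. In KO against Het at most 1 did, under the replicate block, both rescalings, sex as a covariate and without KO replicate 3. Under these, 502 to 1401 genes did. The number of genes called over all genes was 0 under each alternative with at least 2 libraries per group, with these exceptions. It was 1 in Het against WT and 1 in KO against Het when only the compared groups were fitted. It was 0 to 1 in each comparison when a replicate was left out. Deviations of same-numbered libraries correlated between -0.07 and 0.47, above 0.1 in 4 of 9 pairs, 1 of them Het replicate 2 with WT replicate 2 (0.25). The numbers were not treated as pairing KO or Het with WT. With the replicate number as a block 0 genes and 0 subunits were called in each comparison, and the genes at an unadjusted p under 0.05 were 382 in KO against WT, 493 in Het against WT and 984 in KO against Het, against 178, 242 and 541 without it.

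Of the 62 reversals, 33 came from leaving out a single library, 13 from sex as a covariate, 13 from leaving out the 4 libraries with high Cdhr1, 2 from quantile normalization and 1 from upper-quartile rescaling. Without the high-Cdhr1 libraries 1 KO library was left, assumed to vary like the other groups. The libraries without Ddx3y all had high Cdhr1 and none of them was WT, so sex and Cdhr1 overlap with each other and with genotype. The cause was not tested. In KO against WT, with sex as a covariate, the log2 values were 0.071 for Actr2, -0.38 for Arpc1b, 0.13 for Arpc2, 0.052 for Arpc3 and 0.035 for Arpc5. Without the high-Cdhr1 libraries they were 0.13 for Actr2, -0.047 for Arpc1b, 0.28 for Arpc2, 0.090 for Arpc3 and 0.087 for Arpc5, and with upper-quartile rescaling 0.0047 for Arpc3. In Het against WT, with sex, they were 0.046 for Actr3, 0.081 for Arpc2, 0.017 for Arpc3, 0.0046 for Arpc4 and 0.0098 for Arpc5, and without the high-Cdhr1 libraries 0.055 for Actr3, 0.098 for Arpc2 and 0.0062 for Arpc3. In KO against Het, without the high-Cdhr1 libraries, they were -0.071 for Actr3b, -0.010 for Arpc1a, 0.18 for Arpc2, 0.12 for Arpc5 and 0.017 for Arpc5l, with a median over the subunits of 0.050. With sex they were 0.051 for Arpc2, 0.025 for Arpc5 and 0.0037 for Arpc5l, and with quantile normalization 0.00055 for Arpc2 and 0.0093 for Arpc5. Without the high-Cdhr1 libraries the Actr3b to Actr3 ratio differed by -0.20 in KO against WT and -0.013 in KO against Het, and the Arpc5l to Arpc5 ratio by 0.00017 in Het against WT, where quantile normalization gave 0.0031.

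Leaving out 1 replicate at a time, the KO against WT values ran from -0.084 to 0.020 for Actr2, -0.085 to 0.088 for Actr3b, -0.24 to 0.35 for Arpc1b, -0.17 to 0.027 for Arpc2 and -0.051 to 0.047 for Arpc3, and the median over the subunits from -0.10 to -0.027. In Het against WT they ran from -0.064 to 0.049 for Actr3, -0.059 to 0.053 for Arpc2, -0.074 to 0.037 for Arpc3 and -0.11 to 0.019 for Arpc4, with a median from -0.083 to -0.026. In KO against Het they ran from -0.0040 to 0.049 for Arpc1a, -0.17 to 0.033 for Arpc2, -0.043 to 0.068 for Arpc3, -0.11 to 0.036 for Arpc5 and -0.065 to 0.010 for Arpc5l, with a median from -0.052 to 0.032. The Arpc1b to Arpc1a ratio ran from -0.20 to 0.41 in KO against WT and -0.56 to 0.076 in Het against WT, Actr3b to Actr3 from -0.0068 to 0.24 in KO against WT, and Arpc5l to Arpc5 from -0.041 to 0.030 in KO against WT and -0.026 to 0.045 in KO against Het. Counting error at the lowest value of any subunit was at most 5.59%.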
